A study of Mus musculus with 14 samples.

Results

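The major histocompatibility complex (MHC) and antigen presentation genes of the mouse kidney were followed in 14 male C57BL/6J mice. Members were chosen by name, as every gene whose symbol begins with H2- together with B2m, Cd74, Ciita, Nlrc5, Tap1, Tap2, Tapbp, Psmb8, Psmb9, and Psmb10. Of the 21878 genes in the files, 47 matched, 37 by the H2- prefix and 10 by name. Of these, 35 reached an FPKM (a fragment density corrected for transcript length and library size) of at least 0.1 in 3 or more mice, as did 14912 genes in all. The 35 comprise 15 class I heavy chain or class I-like genes, 8 class I partners, 9 class II genes, 2 class II partners, and H2-Ke6, which lies in the region but encodes a 17-beta-hydroxysteroid dehydrogenase and presents no antigen.

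Each genotype, Cfb-/- and WT, was represented by 4 diabetic and 3 control mice. Diabetic mice had been fed a high-fat diet (HFD) with 60% of calories from fat and injected with streptozotocin (STZ), which destroys pancreatic beta cells, at 60 mg/kg on 5 days. Control mice were fed chow with 10% of calories from fat and injected with citrate buffer. Cfb-/- mice lack complement factor B, which the study describes as essential for activating the alternative complement pathway. WT mice are described by the study as littermates of the Cfb-/- mice. The labelled time of 34 weeks is close to the age at which kidneys were taken, when the ages and intervals in the study's methods are added up. HFD came before STZ, and the same mice received both, so their effects cannot be told apart. The treatment label of the control mice reads as that of the diabetic mice, and the groups follow the titles. The genotype label says knockdown, whereas the study describes a knockout.

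MHC class I molecules consist of a heavy chain and beta-2-microglobulin (B2m) and show peptides cut by the proteasome, carried into the endoplasmic reticulum by Tap1 and Tap2 and loaded with the help of tapasin (Tapbp), to CD8 T cells. MHC class II molecules consist of an alpha and a beta chain, are guided to endosomes by the invariant chain Cd74, exchange peptides under H2-DM with H2-DO as its inhibitor, and present to CD4 T cells. Nlrc5 and Ciita are the coactivators that switch on class I and class II genes, respectively, and interferon gamma raises both. In the kidney, class II is carried mainly by macrophages and dendritic cells, and tubular epithelium can acquire it under inflammation. C57BL/6J carries an H2 haplotype with an inactive E alpha gene, and H2-Ea-ps was listed at 0 in all 14 mice.

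Coactivation by Nlrc5 and Ciita works through a promoter module with an X2 box, whose core resembles TGANG, and a Y box, which reads ATTGG. The module was looked for by its letters in 300-base promoters from RefSeq (build GRCm38.p6, 250 bases before and 50 after a start). A promoter was counted when TGANG was followed on the same strand by ATTGG, with 22 to 28 bases between their first letters, on either strand. The boxes cannot overlap at these distances. The window of distances was chosen after member promoters had been read. Of the 35 genes, 27 had a promoter entry and 13 of these (48.1%) held the pair, against 2.17% of the 27025 genes with an entry. ATTGG alone was in 24 of the 27 (88.9%) and in 41.1% of all genes, whereas TGANG alone was in 90.9% of all genes. The stretches of 3 class I route genes and 3 class II genes are shown to let the spacing be compared between the classes. Capitals mark ATTGG and the first TGANG that matched. In H2-D1, H2-Eb1, and H2-DMb1 their first letters lie 28, 27, and 28 bases apart. A second TGANG in these 3 stretches, not in capitals, also matched, at 25, 24, and 25 bases from the same ATTGG. The spacing is therefore not settled by the capitals alone.
H2-D1 (chr17:35262975-35263032, plus strand): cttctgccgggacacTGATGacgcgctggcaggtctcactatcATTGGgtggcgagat
H2-Q4 (chr17:35379495-35379552, plus strand): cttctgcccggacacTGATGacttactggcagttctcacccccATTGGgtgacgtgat
B2m (chr2:122147594-122147648, plus strand): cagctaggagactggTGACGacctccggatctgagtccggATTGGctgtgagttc
H2-Aa (chr17:34287857-34287912, minus strand): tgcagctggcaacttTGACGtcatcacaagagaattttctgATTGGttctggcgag
H2-Eb1 (chr17:34305766-34305822, plus strand): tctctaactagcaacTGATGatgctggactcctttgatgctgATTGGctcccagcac
H2-DMb1 (chr17:34153087-34153144, plus strand): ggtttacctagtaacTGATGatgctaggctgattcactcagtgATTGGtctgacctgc
In these stretches ATTGG began at positions -79 to -48 from the start of transcription, and all of them lie upstream of the annotated gene. The other genes with the pair were H2-K1, H2-M3, H2-Q6, H2-Q7, H2-DMb2, H2-Eb2, and H2-Ob. A promoter entry without the pair was found for H2-T22, H2-T23, H2-T-ps, H2-Q2, H2-Q10, H2-M2, H2-Oa, H2-DMa, H2-Ke6, Tap1, Tapbp, and the 3 Psmb genes. A match of letters is not a binding site, and a missing match says only that these letters are not in this window.

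Cfb itself was at 1.13 to 2.22 FPKM in the 7 Cfb-/- mice and at 56.7 to 130.7 FPKM in the 7 WT mice, so that the genotype labels held in every mouse. The sum of FPKM over genes ranged from 330246 to 488196, and it was highest in WT control mouse 2, where the kidney androgen-regulated transcript Kap held 13.9% of it. It was higher in every control mouse than in any diabetic mouse. The most abundant transcript held 10.2% to 13.9% of the sum in WT control and 10.6% to 11.4% in Cfb-/- control mice. In WT diabetic mice it held 3.07% to 4.60%, and in Cfb-/- diabetic mice 2.49% to 3.65%. Library composition thus differed between diabetic and control mice. Read totals are not given in the files, so depth is known only in relation between mice, from the steps between low values, at about 0.847 to 0.973 of that of Cfb-/- diabetic mouse 1. The labels do not give which mice shared a litter or cage, and p-values measure the spread between these mice. Among the 35 members, Cfb-/- diabetic mouse 2 was the highest of its group for 30, WT control mouse 2 the highest for 22, WT control mouse 1 the lowest for 24, and Cfb-/- control mouse 2 the lowest for 28.

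The first question was whether diabetes changed antigen presentation genes in WT kidney. Most genes of both classes rose. In WT diabetic compared with WT control mice, 28 of the 35 members were higher and 1 was lower at an adjusted p under 0.05 (limma on log2(FPKM + 0.1), Benjamini-Hochberg over 14912 genes), where 36.2% of all genes tested were higher and 9.97% lower. The class I median was 1.149 on the log2 scale and the class II median 1.263, beside 0.29 for all genes. At the study's own criteria, an unadjusted p under 0.05 and more than a 2-fold change, 19 members were higher (15.6% of all genes) and 0 lower (1.82%). Only the thresholds are those of the study, which used DESeq2, whereas limma on log2(FPKM + 0.1) was used here. The groups did not overlap for 27 members that were higher and 1 that was lower (35.5% and 9.84% of all genes). H2-Eb2 reached 0.1 FPKM in no control mouse and entered these counts only through diabetic mice. Without it, 27 of 34 members were higher at an adjusted p under 0.05, 18 at the study's criteria, and 26 without overlap, and the class II median was 1.128.

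The classical class I chains were the most abundant heavy chains. The values of H2-K1 were 64.0, 98.3, and 74.3 FPKM in WT control and 190.7, 177.6, 178.2, and 211.0 FPKM in WT diabetic kidneys. The highest control lay below the lowest diabetic mouse, and the fold change was 2.43 (log2 1.28 ± 0.18 SE, limma adjusted p = 0.000112). H2-D1 rose from 141.0 ± 16.7 to 312.2 ± 28.2 FPKM (mean ± SD, n = 3 and 4), a fold change of 2.22. B2m, the light chain that every class I heavy chain shares, was the most abundant member and rose from 369.9 ± 33.7 to 998.3 ± 103.1 FPKM, a fold change of 2.70 (limma adjusted p = 1.06e-05).

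The machinery that supplies class I with peptides rose as well, with all 8 class I partners higher, although Psmb9 and Psmb10 lost their calls under median-ratio scaling (limma adjusted p = 0.0695 and 0.0823) and quantile normalization (limma adjusted p = 0.106 and 0.132). Nlrc5 had the largest change of the 35 members, from 0.608, 0.354, and 0.440 FPKM in WT control kidneys to 2.59, 1.68, 2.15, and 2.25 FPKM in WT diabetic kidneys, a fold change of 4.02 (limma adjusted p = 8.64e-05). Its groups did not overlap. Tap1 rose 2.99-fold and Tap2 1.90-fold, whereas Tapbp rose 1.72-fold. The immunoproteasome subunits Psmb8, Psmb9, and Psmb10, which replace the constitutive catalytic subunits, rose 2.20-fold, 1.72-fold, and 1.55-fold.

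Among class II genes, 8 of 9 were higher, or 7 of 8 without H2-Eb2. H2-Ab1 and H2-Aa encode the beta and alpha chains of I-A, the class II molecule of this haplotype. The values of H2-Ab1 were 86.0, 127.3, and 101.9 FPKM in WT control and 287.9, 192.5, 218.3, and 318.2 FPKM in WT diabetic kidneys, a fold change of 2.40 (limma adjusted p = 0.000394). H2-Aa rose 2.68-fold and H2-Eb1 2.73-fold. Cd74 rose from 156.6 ± 37.7 to 441.0 ± 87.9 FPKM (SD, n = 3 and 4), and Ciita from 0.502 ± 0.047 to 1.47 ± 0.33 FPKM. The peptide editor genes H2-DMa, H2-DMb1, and H2-DMb2 rose 1.99-fold, 1.99-fold, and 2.88-fold, and the call of H2-DMa was lost under quantile normalization (log2 0.45, limma adjusted p = 0.0751). H2-DO is the inhibitor of H2-DM and is made mainly in B cells. Its genes changed least, since H2-Oa did not pass (1.48-fold, limma adjusted p = 0.229) and H2-Ob passed barely (1.64-fold, limma adjusted p = 0.0495) and failed in most alternative analyses. H2-Eb2 did not exceed 0.055 FPKM in WT control mice and ranged from 0.162 to 0.387 FPKM with diabetes. Its call was lost under quantile normalization (log2 0.63, limma adjusted p = 0.0759).

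**Figure D1:**
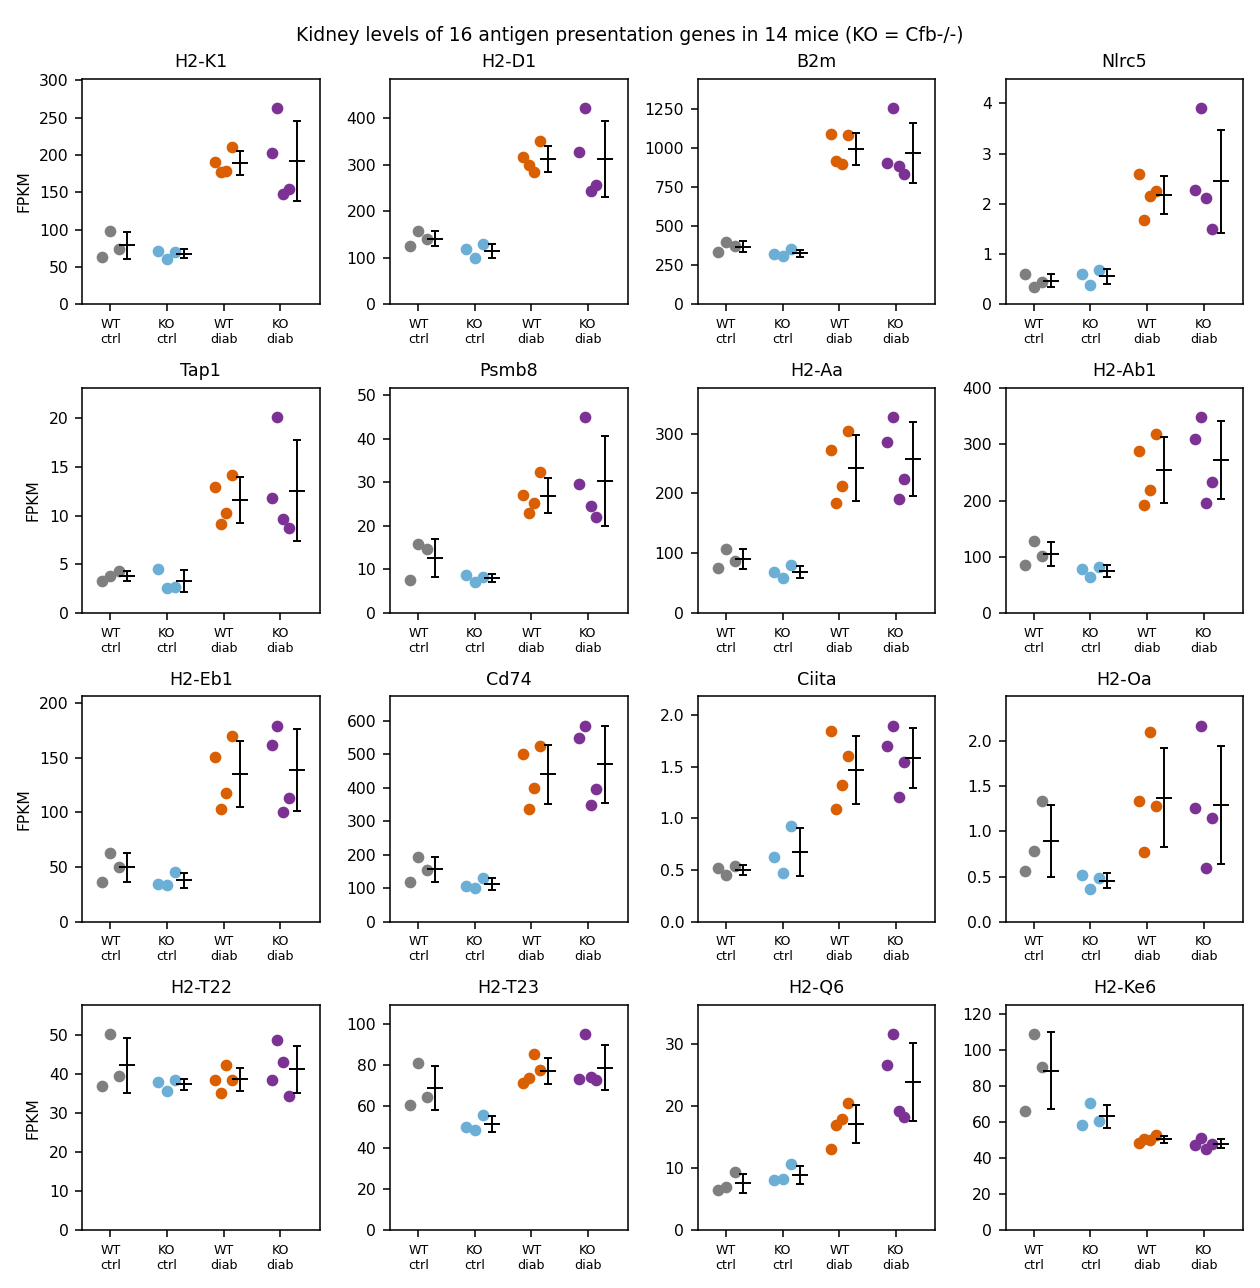
FPKM of 16 members in each of 14 mice. Points are single mice, and the bar beside each group gives the mean ± SD (n = 3 control and n = 4 diabetic mice per genotype; every axis starts at 0). H2-K1, B2m, and H2-Ab1 separated diabetic from control mice in both genotypes, whereas H2-T22 overlapped and H2-Ke6 was lower in diabetic mice.

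The rise did not extend to every class I gene. Of the 15 heavy chain genes, 10 were higher and the 5 that did not pass were H2-T22, H2-T23, H2-T-ps, H2-Q10, and H2-Bl. H2-T23, which encodes Qa-1, the molecule that shows leader peptides of other class I chains to the NKG2A receptor, measured 60.9, 80.9, and 64.6 FPKM in WT control kidneys and 71.1, 73.8, 85.5, and 77.8 FPKM in WT diabetic kidneys. The groups overlapped (1.13-fold, 95% interval 0.940 to 1.35, limma adjusted p = 0.261). H2-T22, a ligand of some gamma-delta T cells, measured 36.9, 50.1, and 39.5 FPKM against 38.5, 35.1, 42.3, and 38.4 FPKM. Its log2 change of -0.12 became 0.01 without WT control mouse 2, and reached -0.40 (limma adjusted p = 0.0491) when libraries were rescaled by median ratios. At the other end, H2-T24 rose 3.65-fold, the largest change of a heavy chain gene. H2-Ke6 was the member that fell, from 66.2, 108.9, and 91.0 FPKM to 48.6, 50.7, 49.9, and 53.1 FPKM (log2 change -0.78 ± 0.13 SE, limma adjusted p = 0.0004).

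The next question was whether the response was also present without Cfb. In Cfb-/- diabetic compared with Cfb-/- control mice, 30 of the 35 members were higher and 1, H2-Ke6, was lower (27.4% and 6.40% of all genes tested). The lower call was lost without Cfb-/- diabetic mouse 1, 3, or 4 or Cfb-/- control mouse 2 or 3. The class I median was 1.38 and the class II median 1.52 on the log2 scale, beside 0.22 for all genes. At the study's criteria 25 members were higher (13.3% of all genes) and 0 lower (1.66%). The groups did not overlap for 29 members that were higher and 2 that were lower, H2-Ke6 and H2-Bl (33.6% and 8.64% of all genes). In this comparison 12 of 15 heavy chain genes, 8 of 8 class I partners, 8 of 9 class II genes, and both class II partners were higher. Without H2-Eb2 the counts were 29 of 34 members, 28 without overlap, and 7 of 8 class II genes, and the class II median was 1.68.

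H2-K1 rose from 71.9, 61.3, and 70.5 FPKM in Cfb-/- control mice to 203.2, 262.8, 148.1, and 154.0 FPKM in Cfb-/- diabetic mice, a fold change of 2.76 (limma adjusted p = 4.81e-05). B2m rose 2.93-fold, H2-D1 2.66-fold, Nlrc5 3.74-fold, and Tap1 3.66-fold. Psmb8 rose 3.60-fold, Psmb9 2.76-fold, and Psmb10 2.0-fold, with Tap2 at 2.42-fold and Tapbp at 1.98-fold. H2-M2 had the largest change of a heavy chain gene (3.98-fold), at 0.051 to 0.258 FPKM in Cfb-/- control and 0.502 to 0.988 FPKM in Cfb-/- diabetic mice.

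H2-Ab1 measured 78.7, 63.3, and 82.6 FPKM in Cfb-/- control mice and 308.7, 348.5, 196.1, and 233.7 FPKM in Cfb-/- diabetic mice, a fold change of 3.56 (limma adjusted p = 2.82e-05). The groups were far apart, and the diabetic mice spread more than the controls. Cd74 rose 4.11-fold, H2-Aa 3.67-fold, H2-Eb1 3.61-fold, H2-DMa 2.87-fold, H2-DMb1 2.68-fold, and Ciita 2.21-fold. H2-DMb2 had the largest change of all members here, from 0.419, 0.369, and 0.845 FPKM to 2.97, 4.28, 2.26, and 3.32 FPKM, a fold change of 5.27. Of its 100-base stretches of transcript, 10.3% are also found in H2-DMb1 (GENCODE transcripts of GRCm38), so reads can be split between them. H2-DMb1 was far more abundant, at 8.18 to 10.57 FPKM in Cfb-/- control mice. H2-Oa passed in these mice (2.31-fold, limma adjusted p = 0.0227) and H2-Ob did not (1.56-fold, limma adjusted p = 0.0935). The call of H2-Oa was lost without Cfb-/- diabetic mouse 1 or 2 or Cfb-/- control mouse 2, and under median-ratio scaling (limma adjusted p = 0.0515) and quantile normalization (log2 0.57, limma adjusted p = 0.242). The call of H2-Ob was gained without Cfb-/- diabetic mouse 3. H2-Eb2 reached 1.86-fold, and its call was lost without Cfb-/- control mouse 2 or 3, with a pseudocount of 1 (limma adjusted p = 0.0653), and under quantile normalization (log2 0.34, limma adjusted p = 0.361). H2-T23 passed at 1.52-fold (limma adjusted p = 0.00163), H2-T22 was at 1.09-fold (95% interval 0.907 to 1.32), and H2-Q10, a secreted class I molecule of the liver, had the lowest change of a heavy chain gene, log2 -0.59 (limma adjusted p = 0.155). Under quantile normalization H2-Q10 was called lower (log2 -1.239, limma adjusted p = 0.0107).

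**Figure D2:**
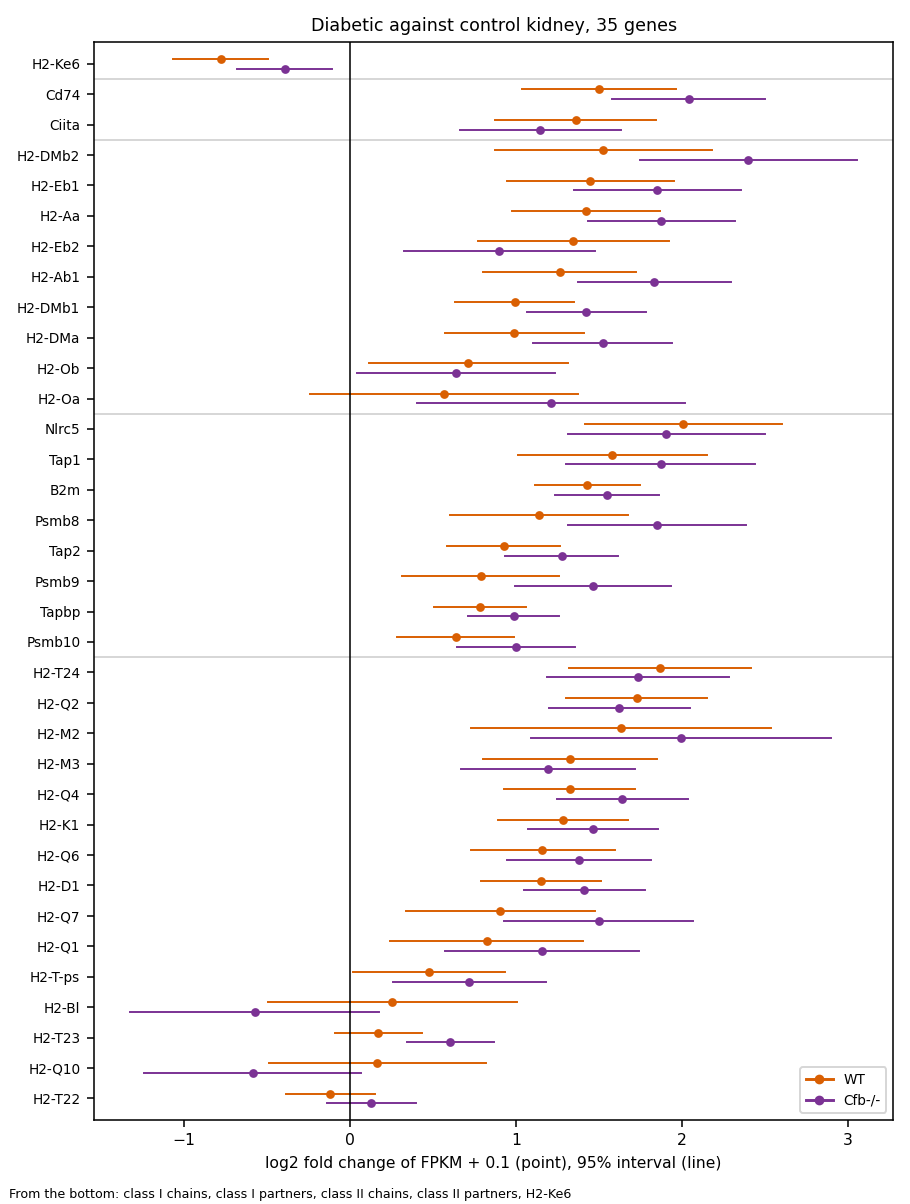
Log2 fold change of FPKM + 0.1, diabetic against control, for the 35 members in WT and Cfb-/- mice, with 95% intervals from limma (n = 4 and 3 mice). Genes are grouped by class and ordered by the WT value. The intervals of B2m, H2-K1, and H2-Ab1 lie above 0 in both genotypes, and those of H2-T22 include 0.

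The size of both comparisons moved with the scaling of the libraries. As deposited, 69.7% of all genes tested had a positive change in WT and 72.2% in Cfb-/- mice. With median-ratio scaling the median of all genes moved from 0.29 to 0.03 in WT and from 0.22 to -0.01 in Cfb-/- mice, and the share of calls that were higher fell from 78.4% to 50.6% and from 81.0% to 57.2%. With quantile normalization the medians of all genes were -0.05 in both, and the shares 44.2% and 49.1%. The class medians lay above those of all genes under both. The class I median was then 0.87 and 0.80 in WT and 1.14 and 0.95 in Cfb-/- mice. The class II median was 0.98 and 0.88 in WT and 1.29 and 1.33 in Cfb-/- mice. In WT mice 23 and 20 members were called higher and 2 and 1 lower, among 6726 and 5360 calls over the 14912 genes tested. In Cfb-/- mice 27 and 26 members were called higher and 1 and 3 lower, among 4850 and 4374 calls over all genes. H2-Oa and H2-Ob in WT mice and H2-Ob in Cfb-/- mice changed sign under quantile normalization.

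Ratios of 2 genes in the same mouse do not change when a library is scaled by a factor, and 12 such ratios were computed, chosen after the data had been seen. The exact two-sided permutation test cannot go below p = 0.0571 for 4 mice against 3 or 0.1 for 3 against 3, and none of the 48 comparisons fell below an adjusted p of 0.196. The ratio of each immunoproteasome subunit to the constitutive subunit it replaces was higher in diabetic mice of both genotypes without overlap. Psmb8/Psmb5 was 0.069 ± 0.017 in WT control and 0.174 ± 0.023 in WT diabetic mice (SD, n = 3 and 4), and 0.051 ± 0.008 and 0.210 ± 0.071 in Cfb-/- mice. Psmb9/Psmb6 was 2.28-fold higher in WT and 3.0-fold higher in Cfb-/- diabetic mice, and Psmb10/Psmb7 1.78-fold and 2.27-fold.

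H2-K1 and H2-D1 were each set against their light chain. H2-K1/B2m was 0.212 ± 0.029, 0.190 ± 0.011, 0.207 ± 0.013, and 0.196 ± 0.025 in WT control, WT diabetic, Cfb-/- control, and Cfb-/- diabetic mice, and all groups overlapped. H2-D1/B2m was 0.372 to 0.392 in WT control and 0.289 to 0.324 in WT diabetic mice, without overlap, whereas it was 0.321 to 0.365 and 0.275 to 0.359 in Cfb-/- mice and overlapped. H2-T23/H2-K1 was 0.823 to 0.951 in WT control and 0.368 to 0.480 in WT diabetic mice, and 0.699 to 0.793 and 0.360 to 0.501 in Cfb-/- mice. The diabetic ratio of H2-T23 to H2-K1 was 0.463 times that of controls in WT and 0.552 times in Cfb-/- mice, and neither pair of groups overlapped. Tap1/Tap2 was higher in diabetic mice, 1.59-fold in WT and 1.54-fold in Cfb-/- mice, again without overlap.

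The balance of class II to class I was read from H2-Ab1/H2-K1. It was 1.30 to 1.37 in WT control and 1.08 to 1.51 in WT diabetic mice, which overlapped. In Cfb-/- mice it was 1.03 to 1.17 in controls and 1.32 to 1.52 in diabetic mice, which did not overlap. The difference between these 2 responses was not tested. Between control mice it was lower in Cfb-/- mice without overlap (exact permutation p = 0.1, the smallest that n = 3 and 3 allow). Cd74/H2-Aa ranged from 1.55 to 1.92 over all mice.

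**Figure D3:**
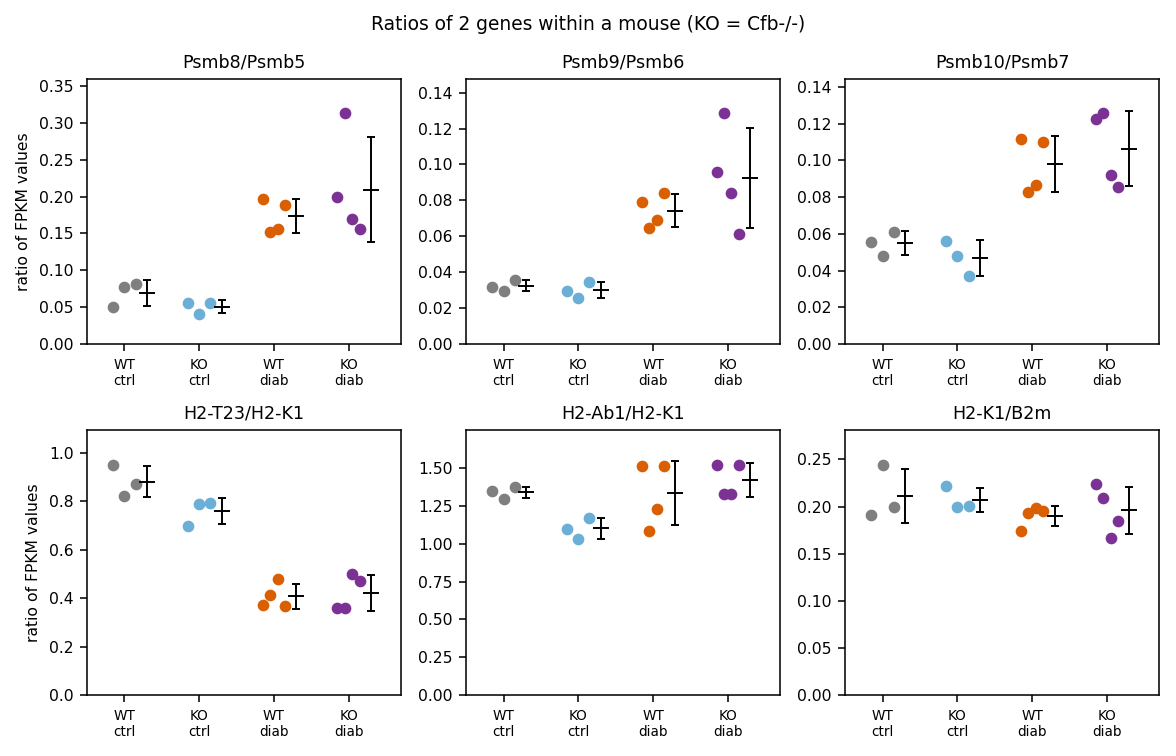
Ratio of the FPKM values of 2 genes within each mouse for 6 pairs. Points are mice, and the bar beside each group gives the mean ± SD (n = 3 control and n = 4 diabetic mice per genotype; axes start at 0). The immunoproteasome ratios were higher and H2-T23/H2-K1 was lower in diabetic mice of both genotypes.

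The effect of the Cfb deletion was asked first in control mice. No member differed at an adjusted p under 0.05 (0.00671% of all genes tested, which was Cfb alone), and 0 of the 35 were higher and 5 lower at an unadjusted p under 0.05 (9.86% and 7.67% of all genes). The 5 were H2-Ke6, H2-T23, H2-DMa, Psmb8, and H2-DMb2. Of the 35, 25 had a negative change, whereas 57% of all genes tested had a positive one. The class I median was -0.16, and the class II median was -0.38, beside 0.06 for all genes. When single mice were left out, the class I median ranged from -0.172 to -0.026 and the class II median from -0.583 to -0.245. H2-T23 measured 50.2, 48.5, and 55.9 FPKM in Cfb-/- control mice, all below the WT control mice (0.754-fold, 95% interval 0.621 to 0.914, limma adjusted p = 0.244). H2-Ke6 measured 58.5, 70.7, and 60.9 FPKM and overlapped the WT controls (0.727-fold, 95% interval 0.589 to 0.898, limma adjusted p = 0.244). H2-DMa was at 0.715-fold (limma unadjusted p = 0.0357).

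These values depended on WT control mouse 1. Without it, 3 of the 35 members were called lower in Cfb-/- control mice, namely H2-Ke6 (limma adjusted p = 0.0216), H2-T23 (limma adjusted p = 0.0401), and Psmb8, and the class II median was -0.58. Over the 14912 genes tested, 1711 were called without this mouse, 55.2% of them higher, so such calls were not particular to the members. Without WT control mouse 2, 0 members and 1 gene in all were called. The groups did not overlap for 1 member that was higher, H2-Q1, and for 5 that were lower, H2-T23, Psmb9, H2-Ab1, H2-Oa, and H2-Q7 (6.67% and 7.12% of all genes).

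In diabetic mice the 2 genotypes lay close together. No member differed at an adjusted p under 0.05 (0.00671% of all genes, again Cfb), and at an unadjusted p under 0.05 1 member, H2-Q6, was higher and 0 were lower (1.33% and 1.67% of all genes). The groups overlapped for every member, where 2.75% of all genes did not. The class I median was 0.06 and the class II median 0.07 on the log2 scale, beside 0.04 for all genes, and both fell on either side of 0 when single mice were left out (-0.10 to 0.08 and -0.06 to 0.17). Intervals bound what could have been missed. For H2-K1 the ratio of Cfb-/- to WT diabetic mice was 0.989 (95% interval 0.768 to 1.27), for B2m 0.965 (0.789 to 1.18), for H2-Ab1 1.06 (0.792 to 1.43), for Cd74 1.06 (0.787 to 1.42), for Ciita 1.08 (0.792 to 1.48), and for Nlrc5 1.07 (0.733 to 1.57). These intervals exclude a 2-fold difference and do not show that the genotypes were equal.

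H2-Q6 encodes a form of Qa-2, a class I molecule anchored to the membrane by a lipid. It measured 26.6, 31.6, 19.3, and 18.3 FPKM in Cfb-/- diabetic and 13.1, 17.04, 17.9, and 20.5 FPKM in WT diabetic mice (1.38-fold, 95% interval 1.04 to 1.82, limma unadjusted p = 0.0268, exact permutation p = 0.114). H2-Q6 and its neighbor H2-Q7 share stretches of transcript, with 8.36% of the 100-base stretches of H2-Q6 also found in H2-Q7 (GENCODE transcripts of GRCm38), so reads can be split between them. Their sum was 29.2 to 54.0 FPKM in Cfb-/- diabetic and 23.5 to 41.2 FPKM in WT diabetic mice. H2-Q6/H2-Q7 was 1.497 to 1.88 in Cfb-/- control and 0.842 to 1.21 in WT control mice, without overlap, and 1.41 to 1.75 and 0.989 to 1.55 in the diabetic mice. The next smallest p-values belonged to H2-Q1 (1.43-fold, limma unadjusted p = 0.058) and H2-Eb2 (0.722-fold, limma unadjusted p = 0.0793).

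**Figure D4:**
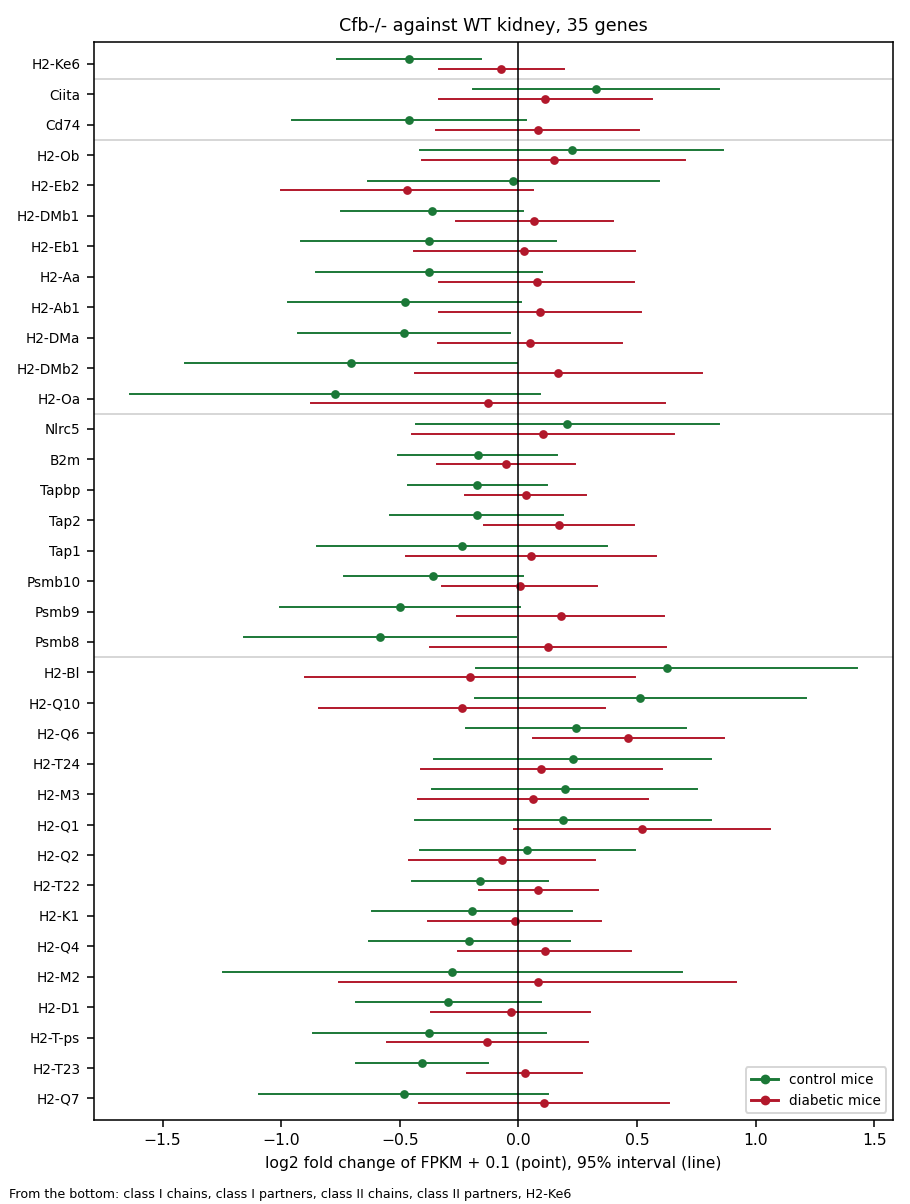
Log2 fold change of FPKM + 0.1, Cfb-/- against WT, for the 35 members in control mice (n = 3 and 3) and diabetic mice (n = 4 and 4), with 95% intervals from limma. Genes are grouped by class and ordered by the value in control mice. In control mice 25 members lie below 0, where 57% of all genes tested lay above 0. In diabetic mice 34 of the 35 intervals include 0, with H2-Q6 as the exception.

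Whether the diabetic response depended on genotype was tested as an interaction. It passed for 0 members at an adjusted p under 0.05 in limma (0% of all genes). At an unadjusted p under 0.05 it passed for 2 members, both larger in Cfb-/- mice (5.77% of all genes in either direction), namely H2-T23 (log2 0.43 ± 0.17 SE, limma unadjusted p = 0.024) and Psmb9 (0.68 ± 0.31 SE, limma unadjusted p = 0.0469). H2-Ke6 followed at 0.39 ± 0.19 SE (limma unadjusted p = 0.0588). The class I median of the interaction was 0.24 and the class II median 0.45 on the log2 scale, beside -0.01 for all genes. Of the 35 members 26 were positive, as were 48.5% of all genes tested. These values and the lower control values above rest on the same 6 control mice.

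The H2 complex surrounds Cfb on chromosome 17, and 42 of the 47 matched genes lie there. B2m, Cd74, Ciita, Nlrc5, and Psmb10 lie on other chromosomes. By RefSeq coordinates of GRCm38.p6, Cfb occupies chr17:34856374-34862514, the nearest member that passed was H2-D1 at 400.6 kb, and the farthest was H2-M2 at 2618 kb. In diabetic mice the nearest members, H2-D1, H2-Q1, and H2-Q2 at 479.8 kb, had genotype ratios of 0.978, 1.43, and 0.954. In control mice the ratios were 0.815, 1.14, and 1.03. Of 28 listed genes around Cfb, 27 were tested and 0 differed by genotype at an adjusted p under 0.05 in either comparison. At an unadjusted p under 0.05, 3 were higher and 6 lower in control mice, where 9.86% and 7.67% of all genes were, and 0 in diabetic mice, where 1.33% and 1.67% were. In control mice C4b had the lowest value (log2 -0.56) and Hspa1b the highest (2.85), and no gene of the list separated the genotypes in both comparisons.

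**Figure D5:**
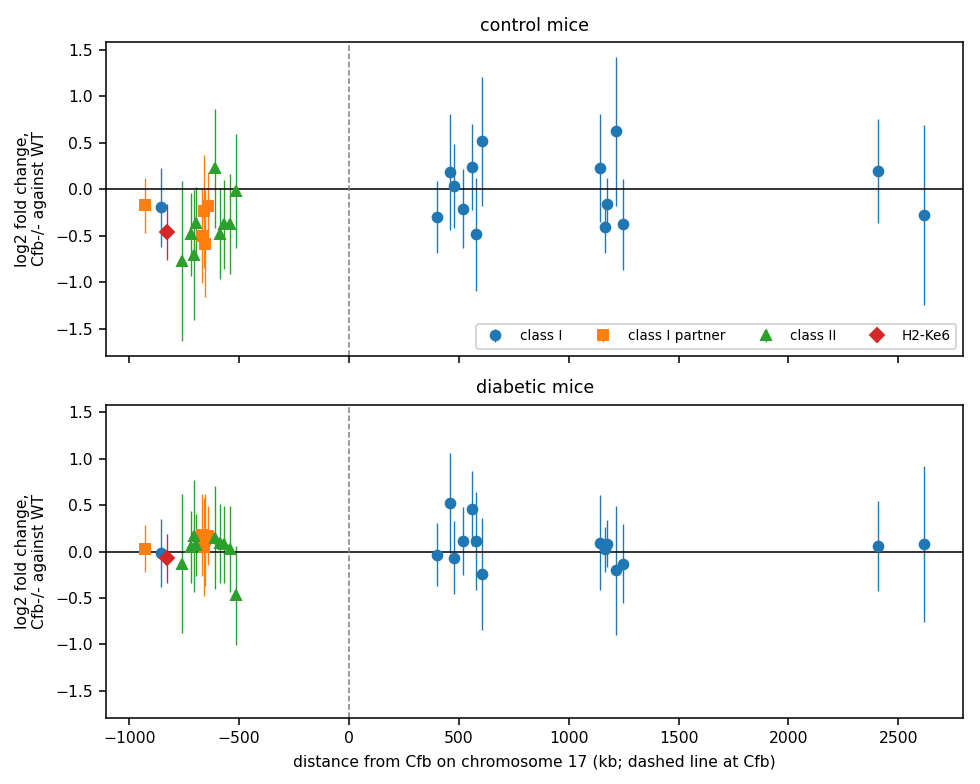
Log2 fold change of FPKM + 0.1, Cfb-/- against WT, against distance from Cfb on chromosome 17 in kb for the 30 members there that passed the filter, with 95% intervals from limma (n = 3 and 3 control mice above, n = 4 and 4 diabetic mice below). Points nearest the dashed line at Cfb lie at 400.6 kb, and in diabetic mice most points lie near 0 at every distance.

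Other genes of the pathway, taken from lists, are read against the 36.2% of all genes that were higher in WT and the 27.4% in Cfb-/- diabetic mice. Of 10 genes of the interferon gamma route, 9 were higher in WT and 7 in Cfb-/- diabetic mice, from Ifng itself (log2 0.16 and 0.00, not passed) to Irf9, a subunit of an interferon-activated factor (1.62 and 1.74). All 4 checkpoint and costimulation genes were higher in both, with Cd86, which binds CD28 on T cells, at 1.43 in WT and Cd40, the receptor for CD40 ligand, at 1.90 in Cfb-/- mice as the largest. Of 10 genes of class I loading and the proteasome, 2 were higher and 1 lower in WT and 3 higher in Cfb-/- diabetic mice. They ran from Psmb6 (log2 -0.39) to Erap1 (0.95) in WT and from Psmb7 (-0.17) to Psme1 (0.74) in Cfb-/- mice. Of 9 genes of class II processing and control 2 and 2 were higher. In both lists the shares that were higher lay near or below those of all genes. The highest of the class II list was Ctss, the protease that trims the invariant chain (log2 2.20 and 2.42). Of 8 class I-like genes outside the H2 complex, 6 were higher and 2 lower in both, from Azgp1 (-2.77 and -1.59) to Mr1, which presents vitamin B metabolites (1.32 in WT), and Procr (1.53 in Cfb-/- mice).

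Whole kidney RNA cannot tell more cells of a type from more RNA per cell. Markers of leukocytes moved with the members, and their counts stand beside the same 36.2% and 27.4% of all genes. Of 8 macrophage markers 8 were higher in WT and 7 in Cfb-/- diabetic mice, with medians of 2.05 and 2.39 on the log2 scale, and their summed level was 67.5 to 84.9 FPKM in WT control, 256.7 to 382.0 in WT diabetic, 56.8 to 88.8 in Cfb-/- control, and 224.7 to 411.8 in Cfb-/- diabetic mice. All 3 general leukocyte markers were higher in both genotypes, 5 and 7 of 7 dendritic cell markers, 5 and 5 of 6 T cell markers, and 3 and 1 of 4 B cell markers that could be tested. Of 3 natural killer cell markers 0 and 2 were higher. The 1 of 4 B cell markers in Cfb-/- mice is near the share of all genes. No gene of these lists was at 0 in a whole group. Their part in the rise of class I and class II was not tested.

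Markers of other tissue moved too. All 3 markers of injured tubule were higher in both genotypes, and their sum was 3.47 to 6.57 FPKM in control and 47.1 to 133.9 FPKM in diabetic mice. Proximal tubule markers were lower, 3 of 5 in WT and 4 of 5 in Cfb-/- mice, beside 9.97% and 6.40% of all genes. Of 4 endothelial markers 2 and 3 were higher, and of 2 podocyte markers 0 and 2, beside 36.2% and 27.4% of all genes. The endothelial count in WT lay near that share, and the podocyte count in WT lay below it. Of 4 urothelial markers 4 were higher in WT and 0 in Cfb-/- diabetic mice, and of 4 adipocyte markers 4 and 1, the last near the share of all genes, with no interaction at an adjusted p under 0.05. Between diabetic mice all 4 adipocyte markers were lower in Cfb-/- mice without overlap (median log2 -2.56), where 2.75% of all genes did not overlap. All 4 urothelial markers were lower at an unadjusted limma p under 0.05 (median log2 -2.93, 1.67% of all genes), and their groups overlapped. None of these passed an adjusted p under 0.05. The urothelial sum was 0.495 to 41.0 FPKM among WT diabetic mice. Cfd and Plin1 of the adipocyte list were at 0 in all Cfb-/- diabetic mice and Plin1 in all WT control mice. The part of these tissues in the member values was not tested.

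Within groups, class II genes varied together from mouse to mouse. For the deviations from group means over 14 mice, H2-Aa, H2-Ab1, H2-Eb1, and Cd74 correlated pairwise at r = 0.957 to 0.995, and 10 genes of the classical class I route at 0.368 to 0.982. The 15 heavy chain genes ranged from -0.726 to 0.953 (median 0.386), and the 9 class II genes from 0.043 to 0.992 (median 0.6). H2-Ab1 deviated with the mean of the leukocyte markers at r = 0.844 and of the T cell markers at 0.859, and against the proximal tubule markers at -0.688. H2-K1 stood at 0.643, 0.790, and -0.640 with the same lists, and H2-T23 at 0.369, 0.607, and -0.340. All of these points share a library and its composition, so they are given as a description.

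The promoter letters can be set beside the responses. Of the 13 genes with the TGANG and ATTGG pair, 13 were higher in WT and 12 in Cfb-/- diabetic mice, with medians of 1.32 and 1.46 on the log2 scale. Without H2-Eb2, which entered through diabetic mice, 12 and 11 of 12 were higher. Of the 14 genes with a promoter entry and no pair, 8 and 11 were higher, with medians of 0.71 and 1.10. The 8 genes without an entry included Nlrc5, Ciita, Cd74, Tap2, and H2-Ab1, and 7 and 7 of these were higher. Because the distances were chosen on these promoters, the counts describe the genes and test nothing.

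The 12 genes that failed the filter were H2-M1, H2-M5, H2-M9, H2-M10.1 to H2-M10.6, H2-M11, H2-T3, and H2-Ea-ps. Of these, 5 were at 0 in every mouse, and the highest single value among the rest was 0.088 FPKM. None of the 12 reached 0.1 FPKM in any mouse, and of the 35 that passed, the fewest mice at that level were 7 for H2-Eb2 and 11 for H2-Bl, a transcribed pseudogene.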

How the data were processed

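RNA from kidneys of 14 mice was sequenced from both ends as stranded mRNA libraries. Per the labels, the submitters' processing notes name Trimmomatic, HISAT2, Cufflinks, HTSeq, DESeq, and the build GRCm38.p6, without versions. The authors deposited 1 FPKM value per gene and mouse. No file names its unit, which was taken as FPKM because values are fractional, sum differently in each mouse, and have smaller steps in longer genes. FPKM divide by library content, so abundant transcripts such as Kap shift all other values, which the scaling alternatives address. Read counts were not used here.

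Members and lists were chosen with earlier results of these data known. log2(FPKM + 0.1) of 14912 genes (at least 0.1 FPKM in 3 or more mice) was fitted with limma 3.58.1 (R 4.3.3, mean-variance trend) with 1 mean for each group and all 14 mice in the fit, and p-values were adjusted by Benjamini-Hochberg over all of them. Fold changes on this scale understate those of low genes. Differences of single genes and ratios were also tested with exact two-sided permutation (scipy 1.17.1), whose smallest p is 0.0286 for 4 mice against 4. Named with values are the 10 members chosen by name, H2-K1 and H2-D1, passing class II genes, the 3 smallest p-values of each genotype comparison and of the interaction, and the extremes of each class. Other members named were singled out after their values were seen. The fit was tested on simulated data with 200 changed genes. Alternatives were other pseudocounts and filters, median-ratio scaling, quantile normalization, fits of only those groups being compared, a block for replicate number, and omission of single mice. Counts without H2-Eb2 were added after seeing the data. Genes were joined to RefSeq by gene ID. The highest correlation between mice of a group was 0.99, and no mouse was counted as a duplicate.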

Additional observations from a re-analysis of the deposited data

Results flagged for a closer look

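Gaps within groups of 4 mice were examined for the 35 members and Cfb, 72 sets in all, and 3 had 1 mouse farther from the others than Dixon's 95% limit for the share of the group's range. Chance gives about 1 in 20 such sets. H2-DMb1 was 32.2 FPKM in Cfb-/- diabetic mouse 2, against 22.4 to 23.4 FPKM in the other mice of its group. H2-T23 was 94.8 FPKM in the same mouse, against 72.7 to 74.3 FPKM. This mouse was the highest of its group for 30 of the 35 members, and without it no member gained or lost a call between the genotypes of diabetic mice. Cfb was 1.13 FPKM in Cfb-/- diabetic mouse 3, against 1.38 to 1.43 FPKM. Groups of 3 were not examined. No interaction of genotype and diabetes passed an adjusted p under 0.05.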

How the results depend on the processing

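The counts of members called stayed within 1.5 times under every setting in both diabetes comparisons, with 27 to 29 in WT and 27 to 31 in Cfb-/- mice when single mice were left out. In control mice the genotype count was 0 to 3 when single mice were left out, reaching 3 without WT control replicate 1, and it was 0 in diabetic mice and for the interaction. Class medians moved by more than the spread between mice under some settings. With a pseudocount of 1, the class I median was 0.82 in WT and 0.76 in Cfb-/- mice and the class II median 0.94 in WT. With median-ratio scaling the class I medians were 0.87 and 1.14, and with quantile normalization they were 0.80 and 0.95, with a class II median of 0.88 in WT. With a filter of 1 FPKM, which leaves 7 class II genes, the class II median in Cfb-/- mice was 1.83. The sign turned with quantile normalization for H2-Oa (-0.137) and H2-Ob (-0.057) in WT and H2-Ob (-0.038) in Cfb-/- mice, and without WT control replicate 2 for H2-T22 in WT (0.012, with a range of -0.208 to 0.012 when single mice were left out). Causes were not tested. Among members followed by name, Psmb9, Psmb10, H2-DMa, H2-Eb2, and H2-Ob in WT and H2-Oa and H2-Eb2 in Cfb-/- mice lost their calls with quantile normalization. Psmb9, Psmb10, and H2-Ob in WT and H2-Oa in Cfb-/- mice also lost theirs with median ratios. Lower calls were gained by H2-Q10 in Cfb-/- mice with quantile normalization and by H2-T22 in WT with median ratios. With quantile normalization, higher calls over all members went from 28 to 20 in WT and from 30 to 26 in Cfb-/- mice, so members not followed by name also lost calls. The replicate number as a block gave 28 and 29 members called in WT and Cfb-/- mice, class I medians of 1.16 and 1.39, and 0 calls elsewhere. It ended the calls of H2-Ob in WT and of H2-Eb2 and H2-Oa in Cfb-/- mice. Same-numbered mice correlated at -0.388 to 0.243 (median 0.022) and others at -0.321 to 0.392 (median 0.012), so the ranges overlapped. Whether same-numbered mice shared a litter or cage is not given in the labels and was not tested. The fit of the compared groups alone could not be made for the interaction. Depth limits members near 0.1 FPKM such as H2-Bl, H2-Eb2, and H2-Q1, and 4 mice against 4 limit the genotype comparison.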
